A study of Mus musculus with 8 samples.

Results

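The genes described here encode the hemidesmosome and the laminin it holds on to: Col17a1, Itgb4, Itga6, Plec, Dst, Cd151, Itga3, Lama3 and Lamb3. They were chosen by symbol from the table of raw counts, and all 9 were present among its 24419 gene symbols and among the 15875 genes with enough counts to be tested. Bulk RNA sequencing covered 4 mouse models of endometrial cancer, TPK, TPM, TPMCa and TPMR1, with 2 libraries per model. Uterus organoids from CAG-Cas9-EGFP mice, which carry Cas9 and a green fluorescent protein under the broadly active CAG promoter, were edited with an sgRNA against Trp53 in all 4 models and transplanted into the uterus of young adult female nude mice. TPM organoids also overexpressed Myc, TPMCa added a Pik3ca E545K cDNA to this, and TPMR1 added an sgRNA against Pik3r1. TPK organoids had no Myc added, and further engineered genes of these models are not described here. The labels call the sequenced material tumor organoids, whereas the methods of the study describe tumor tissue. Nude mice lack a thymus and keep other cell types, so host stroma, vessels and myeloid cells could be part of tissue samples.

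A hemidesmosome is the rivet-like junction that anchors the base of an epithelial cell to its basement membrane. In its core the integrin alpha 6 and beta 4 chains (Itga6, Itgb4) and the transmembrane collagen XVII (Col17a1) bind laminin-332 outside the cell, a trimer that holds the alpha 3 and beta 3 chains (Lama3, Lamb3). Inside the cell, plectin (Plec) and the epithelial form of dystonin (Dst), both plakins, tie these receptors to keratin filaments. The tetraspanin Cd151 sits beside the laminin-binding integrins, and the integrin alpha 3 chain (Itga3) pairs with beta 1 (Itgb1) as a second receptor for laminin-332. Such junctions are abundant in stratified and basal epithelia, and Col17a1, Itgb4 and Lamb3 are mostly epithelial genes, while Plec, Dst, Cd151 and Itgb1 are used by many cell types.

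Total counts per library lay between 15748396 and 26943611. Levels are given as CPM, the counts of a gene per 1000000 counts of a library whose size was scaled by the TMM method of edgeR. A floor of 3 counts, which allows for counting error alone, corresponded to 0.116 to 0.198 CPM. The TPMR1 libraries were less alike than those of the other models: 2012 genes differed by more than 4-fold between them, against 464 to 792 genes in the other 3 models. The sum of 8 general epithelial markers (Epcam, Cdh1, Krt7, Krt8, Krt18, Krt19, Cldn7 and Rab25) was between 3222 and 5799 CPM in the TPK and TPM libraries, between 24.77 and 75.43 CPM in TPMCa and between 6.698 and 28.01 CPM in TPMR1. The label names an epithelial cancer, and its general markers were low in TPMCa and TPMR1, although none of the 8 was at 0 counts in any library. In bulk RNA, fewer epithelial cells and less RNA per epithelial cell cannot be told apart, and the part of either in the values below was not tested.

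The stretches upstream of member start sites are shown so that members that fell in TPMCa and TPMR1 (Col17a1, Lamb3) can be set beside members that did not pass the test (Itga3, Dst). Not passing does not mean unchanged, since Itga3 was lower in both TPMCa libraries than in those of TPM. Any link between these stretches and the levels was not tested. Windows of the RefSeq promoter table of GRCm38.p6 were used for 5 of the 9 members, Col17a1, Lamb3, Itga3, Dst and Cd151, and Itga6, Itgb4, Plec and Lama3 are not shown. The windows of Cd151 and of the second start sites of Lamb3 and Itga3 are not printed. Each line gives the bases from 250 before the start site up to the start site or the first annotated exon, 5′ to 3′ on the strand of the gene, with capitals for a GC box (GGGCGG on either strand) or a TATA box (TATAAA on either strand). The windows are chr19:47692095-47692292 on the minus strand for Col17a1, chr1:193301744-193301992 on the plus strand for Lamb3, chr11:95076802-95076964 on the minus strand for Itga3, and chr1:34011345-34011594 and chr1:34160010-34160259 on the plus strand for the upstream and the internal start site of Dst.
Col17a1: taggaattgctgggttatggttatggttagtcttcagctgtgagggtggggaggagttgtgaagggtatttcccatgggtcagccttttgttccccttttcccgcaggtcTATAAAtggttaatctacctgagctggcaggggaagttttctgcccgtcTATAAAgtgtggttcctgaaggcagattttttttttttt
Lamb3: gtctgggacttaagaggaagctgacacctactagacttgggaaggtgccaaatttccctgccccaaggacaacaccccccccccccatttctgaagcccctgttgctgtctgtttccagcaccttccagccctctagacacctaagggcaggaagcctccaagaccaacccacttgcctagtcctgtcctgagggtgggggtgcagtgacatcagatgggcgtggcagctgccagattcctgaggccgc
Itga3: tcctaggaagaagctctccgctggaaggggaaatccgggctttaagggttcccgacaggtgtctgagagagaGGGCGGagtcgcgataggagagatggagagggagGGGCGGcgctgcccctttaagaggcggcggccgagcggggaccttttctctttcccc
Dst, upstream start: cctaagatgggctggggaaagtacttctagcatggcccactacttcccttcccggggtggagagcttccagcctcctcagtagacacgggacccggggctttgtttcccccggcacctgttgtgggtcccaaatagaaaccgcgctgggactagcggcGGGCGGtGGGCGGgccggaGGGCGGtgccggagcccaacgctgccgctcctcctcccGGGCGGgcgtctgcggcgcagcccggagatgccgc
Dst, internal start: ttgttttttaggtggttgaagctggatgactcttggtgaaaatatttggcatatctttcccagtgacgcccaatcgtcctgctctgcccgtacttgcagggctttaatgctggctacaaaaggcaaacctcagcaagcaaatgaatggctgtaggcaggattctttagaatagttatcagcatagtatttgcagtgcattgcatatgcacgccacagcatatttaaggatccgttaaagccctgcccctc

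Over the whole 250 bases, the Col17a1 and Lamb3 windows held no GC box, whereas the Itga3 window held 3, the upstream Dst window 4 and the first Cd151 window, not printed, 2. The internal Dst window held none, and a GC box was present in 32.7% of all 32851 windows of the same length. The Col17a1 window was the only one of these 6 with a TATA box, at 140 and 91 bases before the start site, against 12.4% of all windows. None of the 6 held the AP-1 motif TGANTCA, found in 6.75% of windows, and an E2-box (CACCTG, 17.2% of windows) was present once each in the Itga3, upstream Dst and first Cd151 windows. The window of the second Lamb3 start site, 193302243, held an E2-box as well, at 6 bases before the start site, so a member that fell had one too. That of Itga3 held 1 GC box, that of Cd151 held none of these motifs, and none of these 3 further windows held a TATA box or the AP-1 motif. These are matches of letters on both strands and not measured sites.

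Of the 9 genes, 3 fell strongly in both models with PI3K pathway edits: the transmembrane collagen Col17a1, the integrin chain Itgb4 and the laminin chain Lamb3. The other 6 did not pass the test in TPMCa or TPMR1 against TPM, and the lowest level of Plec, Dst, Cd151, Itga6 or Itga3 in any library was 14.83 CPM. Lama3, the sixth, went lower without passing. It was between 1.975 and 29.27 CPM in TPMCa and TPMR1, against 66.41 CPM or more in TPK and TPM. The plot of levels by library shows all 9 genes.

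**Figure D1:**
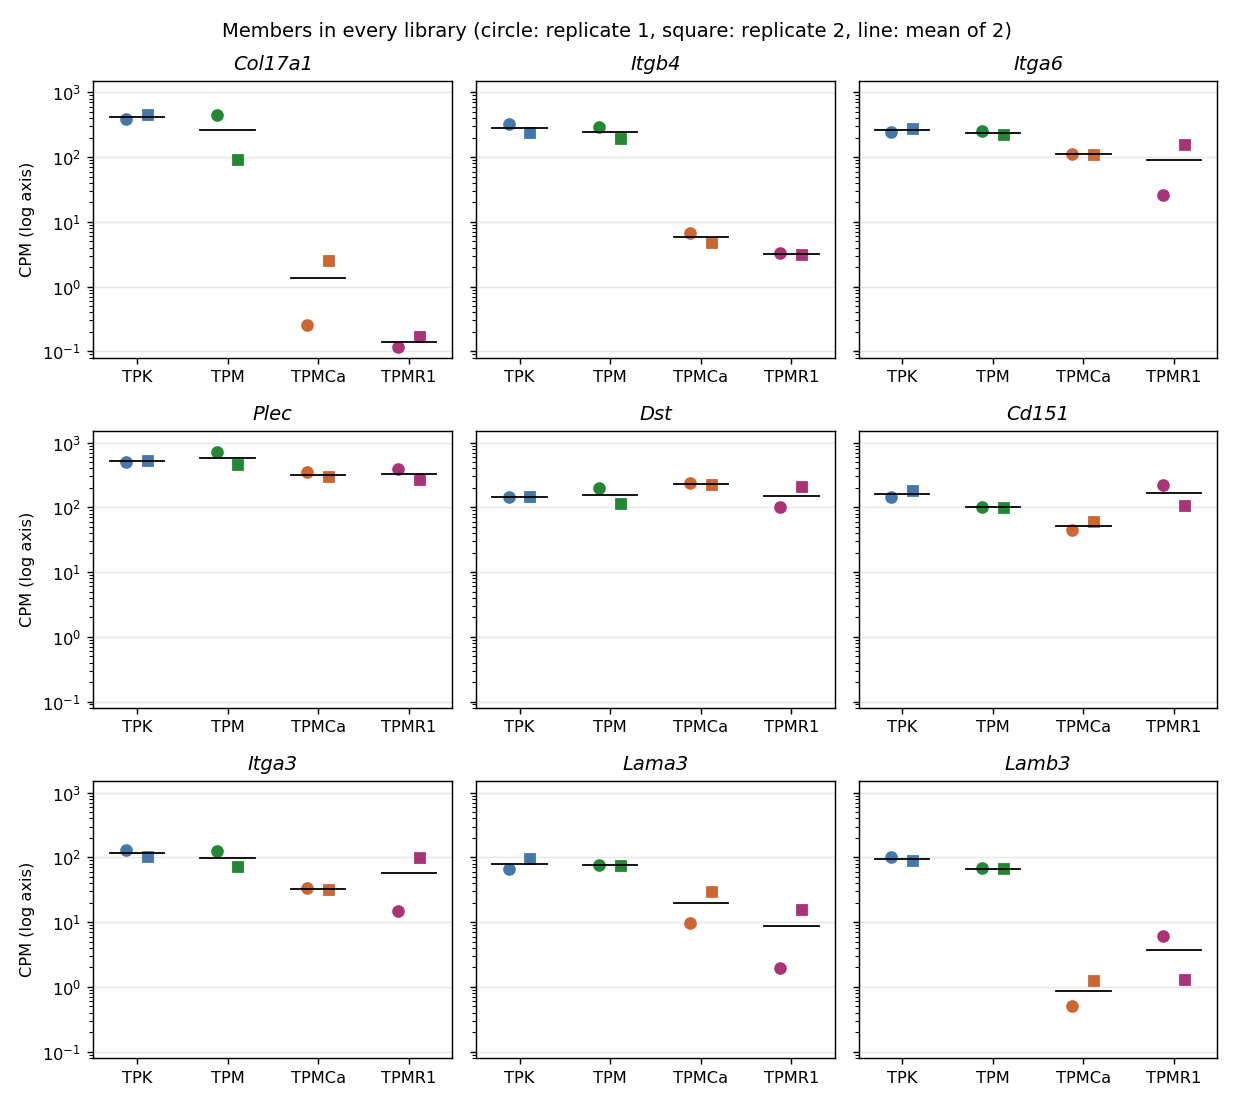
CPM of the 9 genes in every library on a logarithmic axis, with replicate 1 as circles, replicate 2 as squares and the mean of 2 libraries as a line, for TPK, TPM, TPMCa and TPMR1. Col17a1, Itgb4 and Lamb3 sit between 65.9 and 442.4 CPM in TPK and TPM and between 0.1162 and 6.713 CPM in TPMCa and TPMR1, while Plec, Dst and Cd151 stay between 44.52 and 707.9 CPM throughout.

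Col17a1 lies on chromosome 19 of GRCm38, from 47646344 to 47692094 in the GENCODE M21 annotation. It was at 390.2 and 442.4 CPM in the TPK libraries, 441.1 and 90.09 CPM in TPM, 0.2533 and 2.449 CPM in TPMCa and 0.1162 and 0.1667 CPM in TPMR1. All 4 libraries of TPMCa and TPMR1 lay far below the lowest TPM library, and each TPMR1 library held 3 counts, which is the floor. Col17a1 fell by 7.59 ± 1.24 on the log2 scale (SE; edgeR adjusted p = 0.0289) in TPMCa against TPM. In TPMR1 it fell by 10.84 ± 1.48 (edgeR adjusted p = 0.0146), and the pooled counts gave a TPM level 1907 times that of TPMR1 with a 95% exact Poisson interval from 875.8 to 5198, which covers counting error only. The TPM libraries themselves differed 4.896-fold and the TPMCa libraries 9.666-fold. In TPMCa the adjusted p rose to between 0.0755 and 0.114 when either TPK library, either TPMCa library or TPM replicate 1 was left out. In TPMCa the log2 fold change was -6.00 without TPM replicate 1, -8.33 without TPM replicate 2, -6.75 without TPMCa replicate 1 and -9.99 without TPMCa replicate 2, and it was -7.59 and -7.60 without a TPK library. In TPMR1 it was -9.26 without TPM replicate 1 and -11.57 without TPM replicate 2, and it passed in both cases.

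Itgb4, the chain that makes alpha 6 beta 4 specific to hemidesmosomes through its long cytoplasmic tail, lies on chromosome 11 from 115974709 to 116008412. It was at 327 and 239 CPM in TPK, 292 and 191.2 CPM in TPM, 6.713 and 4.786 CPM in TPMCa and 3.252 and 3.113 CPM in TPMR1. No library of TPMCa or TPMR1 came near those of the other 2 models, and replicates of each model were within 1.527-fold. Itgb4 fell by 5.39 ± 0.383 on the log2 scale (edgeR adjusted p = 0.00471) in TPMCa and by 6.24 ± 0.399 (edgeR adjusted p = 0.00252) in TPMR1, both against TPM. Among the 9 genes these were the falls with the smallest adjusted p, and they passed the test in all 15 alternative settings, the 8 that each left out 1 library included.

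Itga6, the partner of Itgb4, on chromosome 2 from 71745616 to 71858416, did not pass the test. Its levels were 249.1 and 273.6 CPM in TPK, 252.6 and 221.1 CPM in TPM, 113.2 and 108 CPM in TPMCa and 26.45 and 152.8 CPM in TPMR1. All 4 libraries of TPMCa and TPMR1 were below those of TPM, but TPMR1 replicate 1 was 5.778-fold below replicate 2. The log2 fold change was -1.10 ± 0.694 (edgeR adjusted p = 0.389) in TPMCa and -1.40 ± 0.699 (edgeR adjusted p = 0.287) in TPMR1, and neither passed. The value in TPMR1 was -0.63 (edgeR adjusted p = 0.256) without replicate 1 and -3.16 (edgeR adjusted p = 0.00564) without replicate 2, with the lone library assumed to vary like the other models. Without either TPMR1 library the value in TPMCa passed as well, with edgeR adjusted p-values of 0.036 and 0.0345.

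The balance between the partners can be read within a library, although bulk RNA does not tell whether both come from the same cells. Per kilobase of exon, Itga6 stood at 0.5921 to 0.8989 times the level of Itgb4 in the TPK and TPM libraries, at 13.11 and 17.54 times in TPMCa and at 6.32 and 38.16 times in TPMR1. Itga6 also pairs with beta 1, and Itgb1, which serves many integrins in many cell types, was at 327 and 341.9 CPM in TPM, 576.6 and 647.5 CPM in TPMCa and 379.8 and 772.7 CPM in TPMR1. Its log2 fold change was 0.87 ± 0.374 (edgeR adjusted p = 0.233) in TPMCa and 0.79 ± 0.374 (edgeR adjusted p = 0.268) in TPMR1. The ratio of Itgb1 to Itgb4 per kilobase went from between 1.925 and 3.523 in TPK and TPM to between 147.6 and 426.7 in TPMCa and TPMR1. These ratios are descriptions without a test of their own.

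**Figure D2:**
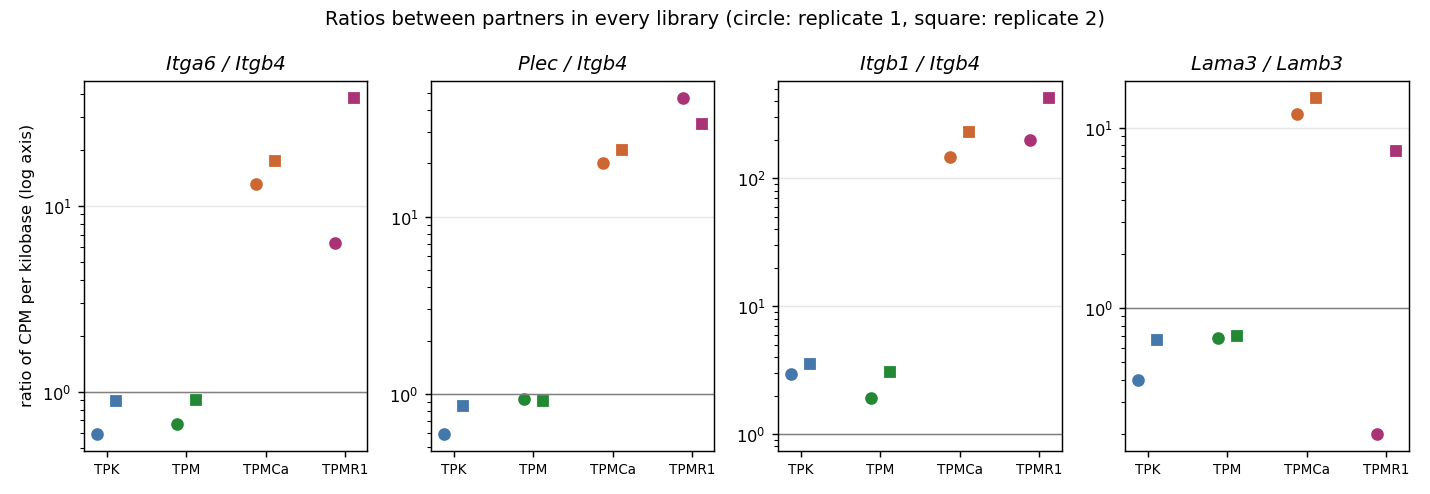
Ratios of CPM per kilobase of exon between partner genes in every library, each on its own logarithmic axis, with replicate 1 as circles, replicate 2 as squares and a grey line at equal levels. For Itga6, Plec and Itgb1 over Itgb4 the 4 libraries of TPMCa and TPMR1 lie above the 4 of TPK and TPM, while Lama3 over Lamb3 is 0.1999 in TPMR1 replicate 1 and 7.438 in replicate 2.

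Both plakin genes of the inner plaque stayed high. Plec, on chromosome 15 from 76170974 to 76232574, was at 501.1 and 525.4 CPM in TPK, 707.9 and 450.6 CPM in TPM, 346.9 and 294.2 CPM in TPMCa and 393.1 and 266.1 CPM in TPMR1. The TPMCa and TPMR1 libraries were all below those of TPM, by a margin smaller than the gap between the TPM libraries. The log2 fold change was -0.85 ± 0.338 (edgeR adjusted p = 0.206) in TPMCa and -0.81 ± 0.338 (edgeR adjusted p = 0.212) in TPMR1, and neither passed. Per kilobase, Plec stood at 0.5935 to 0.9387 times Itgb4, its binding partner in the hemidesmosome, in TPK and TPM and at 20.01 to 46.81 times in TPMCa and TPMR1.

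Dst, on chromosome 1 from 33908225 to 34308661, was at 145.4 and 144.9 CPM in TPK, 197.6 and 112.2 CPM in TPM, 239.5 and 219.3 CPM in TPMCa and 100.6 and 202.7 CPM in TPMR1. It was the only one of the 9 genes whose TPMCa libraries both lay above those of TPM, the TPK libraries lay within the range of TPM, and the TPMR1 libraries lay just outside it on either side. The log2 fold change was 0.57 ± 0.409 (edgeR adjusted p = 0.443) in TPMCa and -0.03 ± 0.408 (edgeR adjusted p = 0.976) in TPMR1. Dst makes epithelial, neuronal and muscle proteins from different start sites, including the 2 shown above, and counts per gene do not tell these forms apart. The same limit holds for the forms of Plec, for which 22 transcripts are annotated, and for those of Itga6 and Lama3.

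Cd151, on chromosome 7 from 141467392 to 141471473, had its own order of levels. It was at 144.8 and 179.1 CPM in TPK, 102.3 and 97.76 CPM in TPM, 44.52 and 58.43 CPM in TPMCa and 223.2 and 106.5 CPM in TPMR1. The TPMCa libraries were the lowest, TPMR1 replicate 1 was the highest, and TPMR1 replicate 2 lay just above those of TPM. Its edgeR log2 fold change was -0.96 ± 0.38 (edgeR adjusted p = 0.207) in TPMCa and 0.72 ± 0.378 (edgeR adjusted p = 0.31) in TPMR1, and in TPMR1 it was 0.09 without replicate 1 and 1.16 without replicate 2. Between TPMR1 and TPMCa it was 1.68 ± 0.387 with an unadjusted p of 0.00373, which did not pass after adjustment (edgeR adjusted p = 0.364), while the Wald test of DESeq2 gave an adjusted p of 0.00971.

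Itga3, on chromosome 11 from 95044474 to 95076801, was at 131 and 102.8 CPM in TPK, 126.7 and 70.7 CPM in TPM, 34.26 and 30.89 CPM in TPMCa and 14.83 and 99.49 CPM in TPMR1. TPMCa was lower than TPM in both libraries, whereas the TPMR1 libraries lay 6.709-fold apart, one below all others and one within the range of TPM. The log2 fold change was -1.60 ± 0.791 (edgeR adjusted p = 0.287) in TPMCa and -0.79 ± 0.776 (edgeR adjusted p = 0.597) in TPMR1. For TPMR1 the value was 0.01 without replicate 1 and -2.73 without replicate 2 (edgeR adjusted p = 0.0184), so a single library decided it.

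Of the laminin-332 chains, Lamb3, on chromosome 1 from 193207699 to 193343878, was at 102.6 and 87.55 CPM in TPK, 68.39 and 65.9 CPM in TPM, 0.5067 and 1.224 CPM in TPMCa and 6.079 and 1.278 CPM in TPMR1. The order was TPK, TPM, TPMR1 and TPMCa, with no overlap between neighbours, and the widest gap was between TPM and TPMR1. The nearest libraries of TPMR1 and TPMCa, replicate 2 of each, held 23 and 22 counts, a gap within counting error. Lamb3 fell by 6.26 ± 0.86 on the log2 scale (edgeR adjusted p = 0.0181) in TPMCa and by 4.18 ± 0.764 (edgeR adjusted p = 0.0311) in TPMR1. The adjusted p rose to between 0.0545 and 0.122 in TPMCa when any 1 library of TPK, TPM or TPMCa was left out. In TPMR1 it rose to between 0.05 and 0.127 without any 1 library of TPK or TPM or without TPMCa replicate 1. Its value was -5.75 and -7.03 in TPMCa without its replicate 1 and 2, and -5.70 and -3.46 in TPMR1 without its replicate 1 and 2.

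Lama3, on chromosome 18, was at 66.41 and 94.53 CPM in TPK, 76.28 and 74.76 CPM in TPM, 9.88 and 29.27 CPM in TPMCa and 1.975 and 15.45 CPM in TPMR1. The 4 libraries of TPMCa and TPMR1 were below all others, with 2.963-fold between the TPMCa libraries and 7.825-fold between those of TPMR1. The log2 fold change was -1.95 ± 0.916 (edgeR adjusted p = 0.268) in TPMCa and -3.12 ± 0.962 (edgeR adjusted p = 0.115) in TPMR1, and neither passed. In TPMR1 the Wald test of DESeq2 gave an adjusted p of 0.00723, and the value was -5.25 (edgeR adjusted p = 0.0143) without TPMR1 replicate 2 and -2.29 (edgeR adjusted p = 0.125) without replicate 1. In TPMCa it was -1.35 without replicate 1 and -2.93 without replicate 2, and neither passed.

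Col7a1, no member of the set but the anchoring fibril collagen that binds laminin-332 from the stromal side, was at 121.2 and 96.05 CPM in TPK and at 514.6 and 190.3 CPM in TPM. It stood between 2.894 and 7.003 CPM in TPMCa and TPMR1 and fell by 6.86 ± 0.578 on the log2 scale (edgeR adjusted p = 0.00576) and 5.67 ± 0.544 (edgeR adjusted p = 0.00522) in these models.

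Each laminin holds a single alpha and a single beta chain, so Lama3 and Lamb3 can be set against the other chains of their family per kilobase of exon. Lamb3 was the leading beta chain in both TPK libraries, with 42.8 and 50.4% of the family, and took 32.2 and 31.1% in the TPM libraries. It took 0.165 and 0.378% in the TPMCa libraries, and 1.4 and 0.257% in the TPMR1 libraries. Lama3 made up 33.5 and 24% of the alpha family in TPK, 15.2 and 14.4% of it in TPM, and 0.609 to 9.48% in the libraries of TPMCa and TPMR1. Among alpha chains, Lama5 led in TPK, TPM and TPMR1 replicate 2. Lama4, which is typical of vessels and other mesenchymal tissue, led in TPMCa with 59.7 and 41.7%, and Lama1 led in TPMR1 replicate 1 with 86%.

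**Figure D3:**
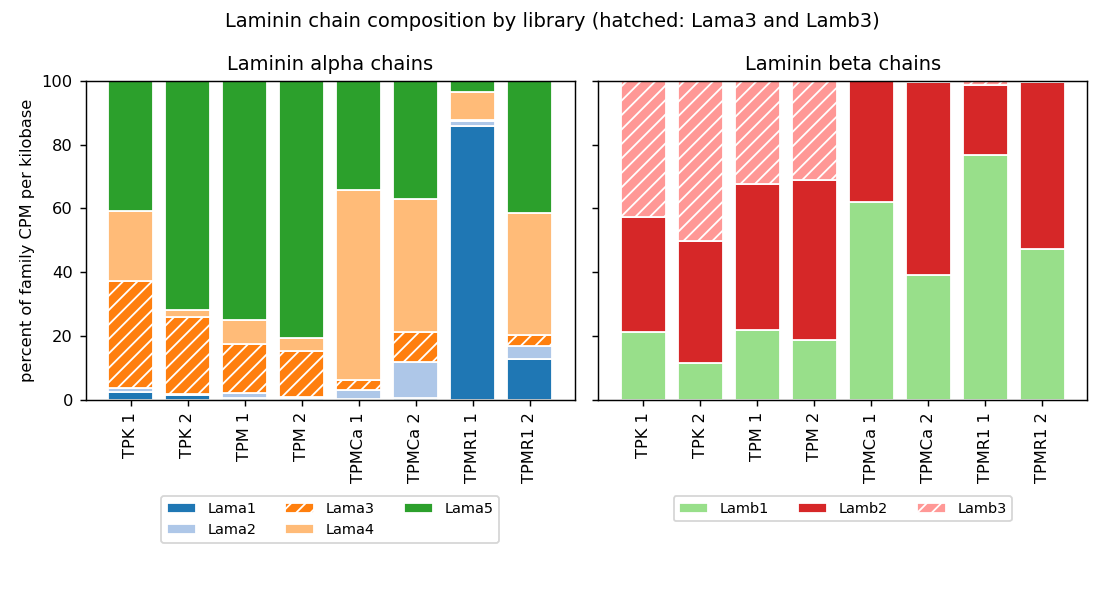
Share of each laminin chain in the summed CPM per kilobase of its family, in percent, for alpha and beta chains in the 8 libraries, with Lama3 and Lamb3 hatched. The hatched beta chain Lamb3 takes 31.1 to 50.4% in TPK and TPM and at most 1.4% in TPMCa and TPMR1.

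Lama3 and Lamb3, which sit in the same trimer, were also set against each other. The ratio of Lama3 to Lamb3 per kilobase was 0.3984 and 0.6645 in TPK, and it was 0.6863 and 0.6982 in the TPM libraries. It was 12 and 14.71 in the TPMCa libraries, whereas TPMR1 replicate 1 had 0.1999 and replicate 2 had 7.438. Lama3 exceeded Lamb3 in both TPMCa libraries and in TPMR1 replicate 2, whereas TPMR1 replicate 1 went the other way. The ratio rests on low counts of Lamb3, 8 and 22 in the TPMCa libraries and 157 and 23 in those of TPMR1.

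In counts over the 9 genes, TPMCa against TPM had 3 genes lower and 0 higher at an edgeR adjusted p under 0.05, where 3.02% of the tested genes were called lower. TPMR1 against TPM likewise had 3 lower and 0 higher, Col17a1, Itgb4 and Lamb3 again, where 4.5% of tested genes were called lower. Both comparisons share the TPM libraries, so their calls are not independent of each other. The number of genes called was between 1 and 5 in TPMCa and between 2 and 6 in TPMR1 when 1 library was left out, highest without a TPMR1 library. The libraries of TPMCa and TPM did not overlap for 9 genes, 8 of them lower, where 61.3% of all tested genes did not overlap and 32.2% were lower. Those of TPMR1 and TPM did not overlap for 7 genes, 6 of them lower, where the shares over all tested genes were 52.9 and 28.4%. The median log2 fold change of the 9 genes was -1.60 in TPMCa and -1.40 in TPMR1, against -0.01 and 0.03 over all tested genes.

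**Figure D4:**
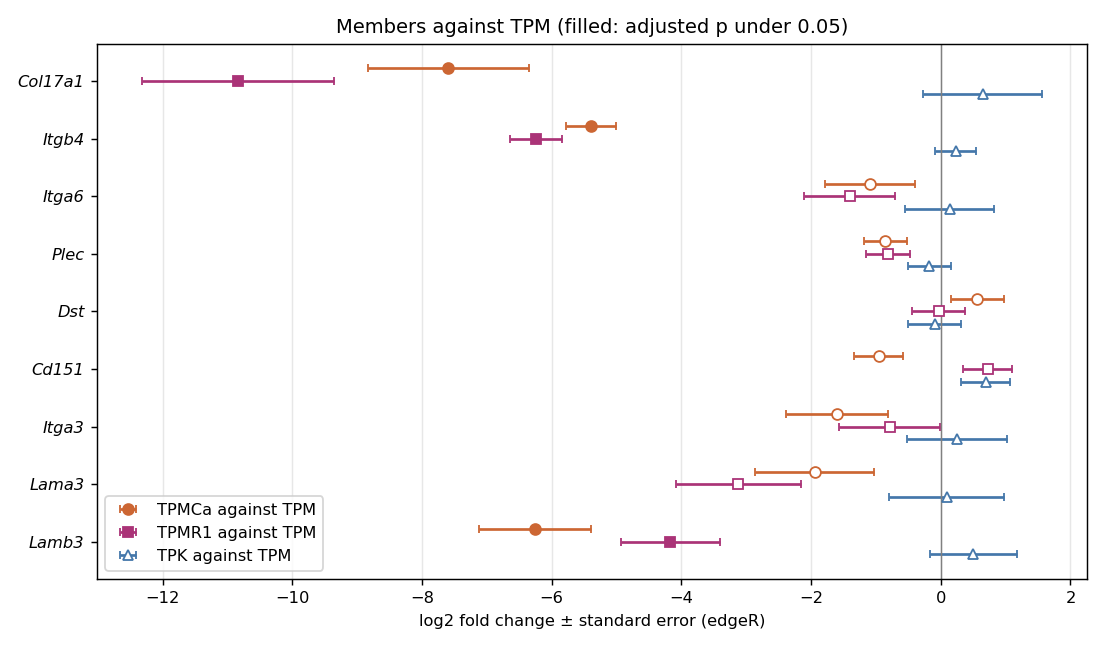
Log2 fold change against TPM with its standard error from edgeR for the 9 genes, in TPMCa (circles), TPMR1 (squares) and TPK (triangles), filled where the adjusted p is under 0.05. Col17a1, Itgb4 and Lamb3 are filled at -4.18 or lower in TPMCa and TPMR1, and all triangles are open and lie between -0.17 and 0.70.

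Against the mean of TPMCa and TPMR1 on the log2 scale, TPM and TPK gave closely spaced values, both resting on the same TPMCa and TPMR1 libraries. TPM had 3 genes higher, where 7.44% of tested genes were called higher, and TPK had the same 3 higher, where the share was 10.3%. Col17a1 was higher by 9.22 ± 0.993 (edgeR adjusted p = 0.00368) in TPM and by 9.86 ± 1.01 (edgeR adjusted p = 0.00276) in TPK. For Itgb4 the values were 5.82 ± 0.29 (edgeR adjusted p = 0.000426) and 6.05 ± 0.293 (edgeR adjusted p = 0.000369). For Lamb3 they were 5.22 ± 0.608 (edgeR adjusted p = 0.00472) and 5.72 ± 0.618 (edgeR adjusted p = 0.00315). These 3 genes passed in both comparisons in all 15 alternative settings, although the value of Col17a1 ranged from 7.63 without TPM replicate 1 to 10.42 without TPMCa replicate 2 in TPM and from 9.45 to 11.07 in TPK. That of Lamb3 reached 5.98 in TPM and 6.48 in TPK without TPMR1 replicate 1. Lama3 came next, with 2.53 ± 0.74 (edgeR adjusted p = 0.0884) in TPM and 2.63 ± 0.74 (edgeR adjusted p = 0.0613) in TPK. The remaining 5 genes lay between -0.27 and 1.25 in TPM and between -0.36 and 1.44 in TPK, and none of them passed. Without TPMR1 replicate 1 and without replicate 2, Itga6 stood at 0.86 and 2.13 in TPM and at 1.01 and 2.27 in TPK. For Lama3 the values were 2.12 and 3.6 in TPM and 2.21 and 3.69 in TPK. Each of these fits rests on a single TPMR1 library, which has no spread of its own.

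TPK and TPM differ in the engineered genes, and none of the 9 genes passed between them, as was true of all tested genes (0%). The log2 fold changes lay between -0.17 for Plec and 0.70 for Cd151, with standard errors between 0.316 and 0.92, and none had an unadjusted p under 0.05, where 1138 of all tested genes did. The Wald test of DESeq2 called 243 genes over the table and 0 of the 9. For Lamb3 and Cd151 each TPK library exceeded each TPM library, while the other 7 overlapped, where 24.4% of all tested genes were higher in TPK without overlap. The 4 macrophage markers were also higher in TPK without overlap, with a median log2 fold change of 1.03, and their part in these values was not tested. These values do not show that the models are alike.

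Between TPMR1 and TPMCa 0 of the 9 genes passed, and again 0% of all tested genes did, although 1867 genes had an unadjusted p under 0.05 and the Wald test of DESeq2 called 797. Beside Cd151, the unadjusted edgeR p was 0.0287 for Lamb3, with a log2 fold change of 2.08 ± 0.75. It was 0.0383 for Itgb4, at -0.85 ± 0.331, and 0.0426 for Col17a1, at -3.24 ± 1.3. Cd151 and Lamb3 were higher in both TPMR1 libraries, and Col17a1, Itgb4 and Dst were lower in both, where 36.5% of all tested genes did not overlap. For Lamb3 the nearest libraries held 23 counts (TPMR1 replicate 2) and 22 (TPMCa replicate 2). For Col17a1 they held 3 counts in each TPMR1 library, the floor, and 4 in TPMCa replicate 1. Both gaps are within counting error. DESeq2 called 1 of the 9, Cd151. Without TPMR1 replicate 2, the log2 fold change was 2.79 for Lamb3, 2.12 for Cd151, -2.06 for Itga6 and -3.3 for Lama3. These values rest on a single TPMR1 library, which has no spread of its own.

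The order of levels differed between genes. For Col17a1, Itga6, Itgb4, Itga3 and Lama3 the mean was highest in TPK, followed by TPM, with libraries that overlapped. Plec was highest in TPM and overlapped with TPK. Dst was highest in TPMCa, without overlap with TPM, and Cd151 in TPMR1, with overlap with TPK. TPMCa and TPMR1 overlapped for Itga6, Itga3, Lama3 and Plec, and did not for Col17a1, Itgb4 and Lamb3. For Col17a1 and Lamb3 the gap between the nearest libraries was within counting error. Across the 8 libraries, log2 CPM of Col17a1 went with that of Itgb4 (r = 0.976) and Lamb3 (r = 0.911), and Itga6 with Lama3 (r = 0.947) and Itga3 (r = 0.919). Dst ran against Cd151 (r = -0.778). These correlations describe 8 libraries that fall into the same 4 models for every gene, so the model differences enter each of them.

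Among 10419 other genes with a mean log2 CPM of at least 3, Rab25, Krt6a and Krt14 were most like Itgb4 (r = 0.998, 0.997 and 0.996), and Krt5, Pkp3 and Eya2 were most like Col17a1 (r = 0.995, 0.994 and 0.991). Kctd1, Mid1ip1 and Eif4ebp3 were nearest to Lamb3, each with an r of at least 0.995, and Mgat4a, Etl4 and Vav3 to Lama3, with an r of at least 0.99. For Itga6 the nearest genes were Epb4.1l4a, Fam84b and Cxxc5, with an r of 0.985 or more, and for Itga3 they were Tnnt2, Fam110c and Wnt4, at 0.965 or more. Dst was nearest to Peli2, Ssh1 and Aff3, Plec to Dusp4, Fgd6 and Porcn, and Cd151 to Nsun4, Zfp324 and Trappc13, with r between 0.96 and 0.984.

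Keratin filaments are what the plaque of the hemidesmosome holds, and in basal cells they are made of Krt5 and Krt14, which the transcription factor Trp63 accompanies. Krt5 was at 7358 and 5506 CPM in TPK and 5720 and 1281 CPM in TPM, at 1 and 16 counts in the TPMCa libraries and at 0 counts in both TPMR1 libraries. Krt14 was at 6517 and 4358 CPM in TPK, 5380 and 1539 CPM in TPM and between 0.9461 and 5.573 CPM in TPMCa and TPMR1. Trp63 was at 230.7 and 200.7 CPM in TPK and at 169.4 and 114.3 CPM in TPM. It was at 0.19 and 1.113 CPM in TPMCa, and in TPMR1 at 0 counts in replicate 1 and 10.39 CPM in replicate 2. Plec and Dst were at 100.6 CPM or more in those same libraries. Plectin and the epithelial form of dystonin bind such filaments, but counts per gene do not tell that form of Dst from its others.

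Related genes of the same structures were counted from lists of fixed members. Of the 8 other laminin chains counted, Lama1, Lamb1 and Lamc1 were higher in TPMR1 against TPM. In that comparison 886 of all 15875 tested genes were called, 714 of them lower. The log2 fold changes of these chains in TPMCa against TPM lay between -1.84 and 2.40 without a call. Lama1, an embryonic chain, was at 2.769 and 2.059 CPM in TPM and 251.3 and 52.86 CPM in TPMR1, a log2 fold change of 5.97 ± 0.836 (edgeR adjusted p = 0.016). The median over this list was 1.23 in TPMCa and 1.87 in TPMR1, opposite in sign to the median of the 9 junction genes. Among 16 other basement membrane genes, Col7a1 was the one called in the comparisons with TPM alone, lower in both models, and the list medians were 1.82 and 1.32. Against the mean of TPMCa and TPMR1, Agrn was called beside Col7a1, higher by 1.46 ± 0.291 (edgeR adjusted p = 0.028) in TPM and by 1.44 ± 0.291 (edgeR adjusted p = 0.0226) in TPK. Hspg2 and Nid2, which encode perlecan and nidogen-2, were called lower in TPK against that mean, with edgeR adjusted p-values of 0.0352 and 0.045.

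Among 16 other integrin subunits, Itgb6, an epithelial chain, was lower in both models, with at most 1 count in any TPMCa or TPMR1 library against 33.83 and 17.96 CPM in TPM. Itga9 was higher in TPMR1, by 2.16 ± 0.445 (edgeR adjusted p = 0.0431). Of 10 other tetraspanins, Tspan1 and Tspan8 were lower in both models and Cd9 in TPMR1, with log2 fold changes from -9.47 ± 1.03 for Tspan1 to -1.81 ± 0.36 for Cd9 in TPMR1. Of 5 other plakins, Dsp and Evpl were lower in both and Ppl in TPMCa. Dsp, the desmosomal plakin, fell by 10.57 ± 1.23 (edgeR adjusted p = 0.0118) in TPMCa and fell by 11.71 ± 1.28 (edgeR adjusted p = 0.00763) in TPMR1, unlike Plec and Dst. Of 11 linkers of integrins to actin, Fermt1, the kindlin of epithelia, was lower in both, with 0 counts in both TPMCa libraries and 1.278 and 0.1112 CPM in TPMR1 against 34.32 and 51.02 CPM in TPM. The other 10 linkers did not pass in either model. When TPM or TPK was set against the mean of both, further genes of these lists passed: the plakin Eppk1, higher in TPM and TPK, the linker Fermt2, lower in both, Tln1, lower in TPM, Parva, higher in TPK, and the tetraspanin Tspan4, lower in TPK.

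The general epithelial markers moved with the genes that fell. All 8 were lower in TPMCa and TPMR1 without overlap, 6 of 8 passed the test in TPMCa and 8 of 8 in TPMR1, and their median log2 fold change was -6.68 and -9.12. Over the same comparisons Itgb4 fell by 5.39 and 6.24, Col17a1 by 7.59 and 10.84, and Lamb3 by 6.26 and 4.18. Rab25 and Cdh1, at 157.8 and 742.4 CPM on average in TPM, were at 0.6266 and 6.155 CPM in TPMCa and at 0.2164 and 0.3856 CPM in TPMR1. The summed level of Col17a1, Itgb4, Lama3 and Lamb3 was between 422 and 886.2 CPM in TPK and TPM and between 11.42 and 37.73 CPM in TPMCa and TPMR1. The part of the epithelial content of the samples in these values was not tested.

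**Figure D5:**
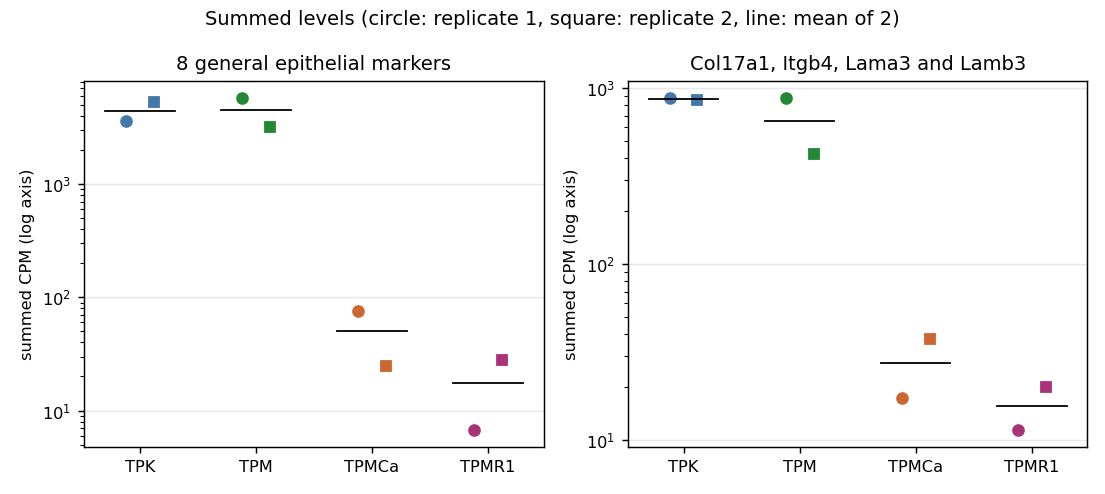
Summed CPM of 8 general epithelial markers (left) and of Col17a1, Itgb4, Lama3 and Lamb3 (right) in every library on logarithmic axes, with replicate 1 as circles, replicate 2 as squares and the mean of 2 libraries as a line. On the left TPK and TPM lie at 3222 CPM or more and TPMCa and TPMR1 at 75.43 CPM or less, and on the right at 422 CPM or more and 37.73 CPM or less.

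Markers of other cell types that use Plec, Dst, Itgb1 and Itga6 were also followed. The sum of 6 endothelial markers was between 52.28 and 146.4 CPM in TPK and TPM, 437.2 and 498.6 CPM in TPMCa and 150.6 and 621.8 CPM in TPMR1. All 6 were higher in TPMCa than in TPM without overlap, where 61.3% of all tested genes did not overlap and 32.2% were lower. None of the 6 passed the test in TPMCa or TPMR1. The 7 fibroblast markers summed to between 2464 and 6448 CPM in TPM, 8579 and 16680 CPM in TPMCa and 903.6 and 6757 CPM in TPMR1. Smooth muscle markers (5) lay between 240.9 and 791 CPM in TPM, 107.1 and 385.9 CPM in TPMCa and 34.58 and 671.4 CPM in TPMR1. Skeletal muscle markers (5) lay between 8.351 and 83.98 CPM in these 3 models, and TPK libraries stood at 2.172 and 832.2 CPM. Schwann cell markers (5) summed to at most 14.9 CPM in any library. Macrophage markers (4) lay between 1320 and 2146 CPM in TPK, 357 and 779.5 CPM in TPM, 798.9 and 3378 CPM in TPMCa and 171.2 and 536 CPM in TPMR1, and the 3 neutrophil markers in the table ranged from 12.16 to 1890 CPM over all libraries. The part of these cell types in the levels of Plec, Dst, Itga6, Itga3 and Cd151 was not tested.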

How the data were processed

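RNA was measured in 8 libraries, 2 for each of the models TPK, TPM, TPMCa and TPMR1, and groups and replicate numbers came from the sample labels, in which TPMCa and TPMR1 are written TPMPik3ca and TPMPik3r1. The TPM columns of both tables are headed TPMS and were assigned to TPM because no other model title was left for them, so each comparison with TPM rests on that reading. The legends of the study count 2 mice per model, and the labels do not tie a library to a mouse or an organoid culture, so the 2 libraries were taken as separate mice. The deposited counts, made by the authors with STAR on mm10, are whole numbers of reads per gene symbol. The counting tool and its annotation are not given in the sources used here, and 25 symbols had been turned into dates. The authors also deposited a table of signal values, the counts divided by DESeq2 size factors, used here only as an alternative scale.

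The counts were filtered with filterByExpr and scaled by TMM in edgeR 4.0.16. A quasi-likelihood fit with a term for each model covered all 8 libraries (common dispersion 0.269), and 6 comparisons were tested with Benjamini-Hochberg adjustment over 15875 genes and a threshold of 0.05. Standard errors are the log2 fold change divided by the square root of the F statistic. The study names DESeq2 for its own tests, used here as an alternative (version 1.42.0). With 2 libraries per model, an exact permutation test of a single gene cannot reach p = 0.05. Likeness and correlations used log2 CPM with a prior count of 2. Levels per kilobase used the union of exons in GENCODE M21 on GRCm38, to which mm10 corresponds, and promoter sequences came from RefSeq GRCm38.p6. The script was tested on simulated data.

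The genes, the related lists (other laminin chains, basement membrane, integrins, tetraspanins, plakins, linkers) and the marker lists were chosen with earlier results of these data known. The text names the 9 members, the 3 called genes of each related list with the largest changes against TPM, the partners Itgb1, Col7a1, Krt5, Krt14 and Trp63, and the 3 genes most like each member. Rab25 and Cdh1 among the markers, and the further list genes named against the mean of TPMCa and TPMR1, were picked after their values were seen. Alternatives were other scalings and filters, DESeq2, fits restricted to the models compared, a replicate block and leaving out each library. Other engineered genes of these models, and a further listed gene, are not reported here.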

Additional observations from a re-analysis of the deposited data

How the results depend on the processing

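Itgb4 kept its direction and its call against TPM in all 15 alternatives, in TPMCa with log2 fold changes from -5.67 to -5.05 and in TPMR1 from -6.52 to -5.88. Over the log2 fold changes of the 9 genes in 6 comparisons, no called value changed sign. Of the values with 1 library left out, 22 gained a call and 16 lost one, and of the other alternatives 6 gained and 4 lost one. The number of the 9 genes called with 1 library left out ranged from 1 to 5 in TPMCa against TPM, from 2 to 6 in TPMR1 against TPM, from 3 to 6 in TPM and in TPK against the mean of TPMCa and TPMR1, from 0 to 0 in TPK against TPM and from 0 to 4 in TPMR1 against TPMCa. A fit of only the models compared called 1 of the 9, Itgb4, in TPMR1 against TPM, with 53 genes in all against 886, and the construction of that fit leaves 4 libraries. DESeq2 called 1 of the 9 in TPMR1 against TPMCa. With a replicate block the calls were 2 in TPMCa against TPM, without Col17a1 (edgeR adjusted p = 0.0619), 2 in TPMR1 against TPM, without Lamb3 (edgeR adjusted p = 0.0554), 3 in TPM and 4 in TPK against the mean, the fourth being Lama3 (edgeR adjusted p = 0.0378), and 0 in the other 2 comparisons. The labels do not say whether the replicate numbers pair the samples. Over all genes, same-numbered deviations correlated between -0.069 and -0.008, which does not test a batch shared by only some genes. The cause of these losses was not tested, and they do not by themselves show a weaker effect.

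Over all genes, TPMCa against TPM had 553 called, 362 with the block, 1264 in the fit of only these models and 2575 by DESeq2. TPMR1 against TPM had 886, 557 with the block and 2880 by DESeq2. TPM against the mean had 1411, 899 in the fit of these models and 3106 by DESeq2, and TPK against the mean had 2287, 1451 and 4487. Scaling by library size alone shifted the median log2 fold change of all genes to -0.13 in TPK against the mean and -0.11 in TPK against TPM. With 1 library left out, the counts over all genes ranged from 38 to 1643 and from 164 to 2059 in TPMCa and TPMR1 against TPM, from 455 to 2061 and from 541 to 3108 in TPM and TPK against the mean, and from 0 to 1379 in TPMR1 against TPMCa, and TPK against TPM stayed at 0. On the deposited signal values, Dst in TPK stood at 0.9191 times TPM. Depth limits Col17a1, Krt5 and Trp63 in TPMR1, where libraries held 0 to 3 counts apart from Trp63 in replicate 2, and the cause of the spread between the TPMR1 libraries was not tested.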
